A study of Mus musculus with 768 samples.

Results

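Of 650 natural killer (NK) cells sorted from MTAP1A tumors, 64 had no transcript of Klrc1, Klra3 or Klra9, the genes of the inhibitory receptors NKG2A, Ly49C and Ly49I. These 64 cells, 32 from wild type (WT) and 32 from PD-1-/- mice, are called receptor-negative cells here. Apart from those 3 genes, they carried more of the listed Ly49 entries than matched cells with 2 or 3 of the receptors. Klra7 (Ly49G) and the entries Klra23 and Klra18, which lack a C57BL/6 gene model, differed most. With gene-model entries alone, the medians were 3 per cell on each plate, against 2 in WT and 1 in PD-1-/- in the matched cells. Over all cells with 2 or 3 of the receptors, the median was 2 on each plate. High shares of Klra23 and Klra18 were not particular to receptor-negative cells. Cells with Klra3 or Klra9 but no Klrc1 also had both entries more often than cells with Klrc1 alone. Receptor-negative cells seldom had transcripts of Klrg1, an inhibitory receptor of mature NK cells. Its call as lower held in 3 of 9 alternative settings. All 8 markers of NK cells were present among them. Of the granule genes 1, Gzmc, was lower by the size limits used here, and the call held in 5 of 9 alternative settings.

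The cells came from 2 plates with 768 wells in all. One plate held NK cells from the pooled MTAP1A tumors of 3 WT C57BL/6 mice and the other those of 3 C57BL/6, PDCD-1(PD-1)-/- mice, which lack the checkpoint receptor PD-1 in all cells. MTAP1A is a fibrosarcoma line from a Tap1-deficient mouse with low MHC class I, the kind of target that NK cells kill by missing-self recognition, and single cells positive for NK1.1 and negative for CD3 and GR1 were sorted into the wells and sequenced by SMART-Seq2. Each genotype was thus 1 pool on 1 plate of age- and sex-matched animals. Effects of genotype cannot be told apart from those of plate or pool, and no test between conditions could be made. Pdcd1 itself did not check the labels, because its exons are summed into 1 value: it was found in 0 of the 32 WT and 1 of the 32 PD-1-/- receptor-negative cells.

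The receptor-negative cells were chosen by transcript readings. Wells with 1000 to 3500 detected genes were kept, 726 in all, and cells with 2 or 3 of the CD3 genes Cd3d, Cd3e and Cd3g were set aside, which left the 650 NK cells. Receptor-negative cells are the NK cells with Klrc1, Klra3 and Klra9 all at 0 RPKM (reads scaled to transcript length and to the mapped reads of the library). They were compared with NK cells that had at least 2 of the 3 receptors, 45.6% of the WT and 39.6% of the PD-1-/- NK cells, and each receptor-negative cell was matched to 1 of these on the number of detected genes. A further 44.7% and 50.5% had exactly 1 receptor and are given beside them. Lack of a transcript in a well is not lack of the protein on the cell, and protein was not measured in these cells.

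NKG2A, encoded by Klrc1, pairs with CD94 (Klrd1) and binds Qa-1b, a nonclassical class I molecule. Ly49C (Klra3) and Ly49I (Klra9) bind the classical class I molecules of the H-2b haplotype that C57BL/6 mice carry, and the other Ly49 receptors bind other class I alleles or viral ligands, some inhibiting and some activating. NK cells express these receptors in a variegated manner, each cell a subset of them, and cells without a receptor for self class I are known to respond weakly to missing self, a tuning called education.

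The 3 receptor genes that chose the cells lie in the NK gene complex on chromosome 6, and Klra3 and Klra9 are near copies. In GENCODE vM21 (GRCm38) both are on the minus strand with 7 exons, Klra3 at chr6:130323289-130337574 and Klra9 at chr6:130178675-130193112. Their coding sequences of 798 bases are alike at 765 positions (95.9%), with a longest identical run of 62 bases. A stretch of 110 coding bases across exons 6 and 7, positions 570 to 679 of the coding sequence, shows why short reads can be hard to place, since only 3 of its bases differ. The stretches span chr6:130323726-130327158 in Klra3 and chr6:130179112-130182479 in Klra9 with an intron left out, and capitals mark the differing bases.
Klra3: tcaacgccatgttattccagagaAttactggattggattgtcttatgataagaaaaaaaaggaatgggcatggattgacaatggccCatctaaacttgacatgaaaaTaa
Klra9: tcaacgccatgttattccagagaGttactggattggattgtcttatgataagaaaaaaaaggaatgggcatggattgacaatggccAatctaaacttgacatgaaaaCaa

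Over whole transcripts, 14.05% of the 50-base windows of Klra3 are also found in Klra9, and 32.5% of those of Klrc1 in Klrc2, the activating NKG2C. How the counting divided such reads is not known, so calls of Klra3 against Klra9 are uncertain. The receptor-negative cells are defined by both at once, so a read swapped between these 2 genes leaves them as they are, whereas a read listed under another gene does not.

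Receptor-negative cells made up 9.73% of the WT NK cells (exact binomial 95% interval 6.75 to 13.5, counting error only) and 9.97% of the PD-1-/- NK cells (6.92 to 13.8). The shares were alike although the receptors themselves were not. Klrc1 was present in 53.8% of the NK cells of WT mice and 64.8% of those of PD-1-/- mice. Klra3 was found in 43.2% and 31.5%, and Klra9 in 50.5% and 40.8%. If the 3 receptors fell on cells without regard to each other, the product of the 3 single absences would give 13.01% receptor-negative cells in WT (42.8 cells) and 14.3% in PD-1-/- (45.8 cells). The observed 32 cells on each plate are 0.748 and 0.698 of these products. The pattern with the largest excess in cells was Klrc1 alone, at 20.1% of the WT NK cells against a product of 15.2% and 33.3% of the PD-1-/- NK cells against 26.3%. These shares describe how the rule divided the cells, and no test was made on them.

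**Figure D1:**
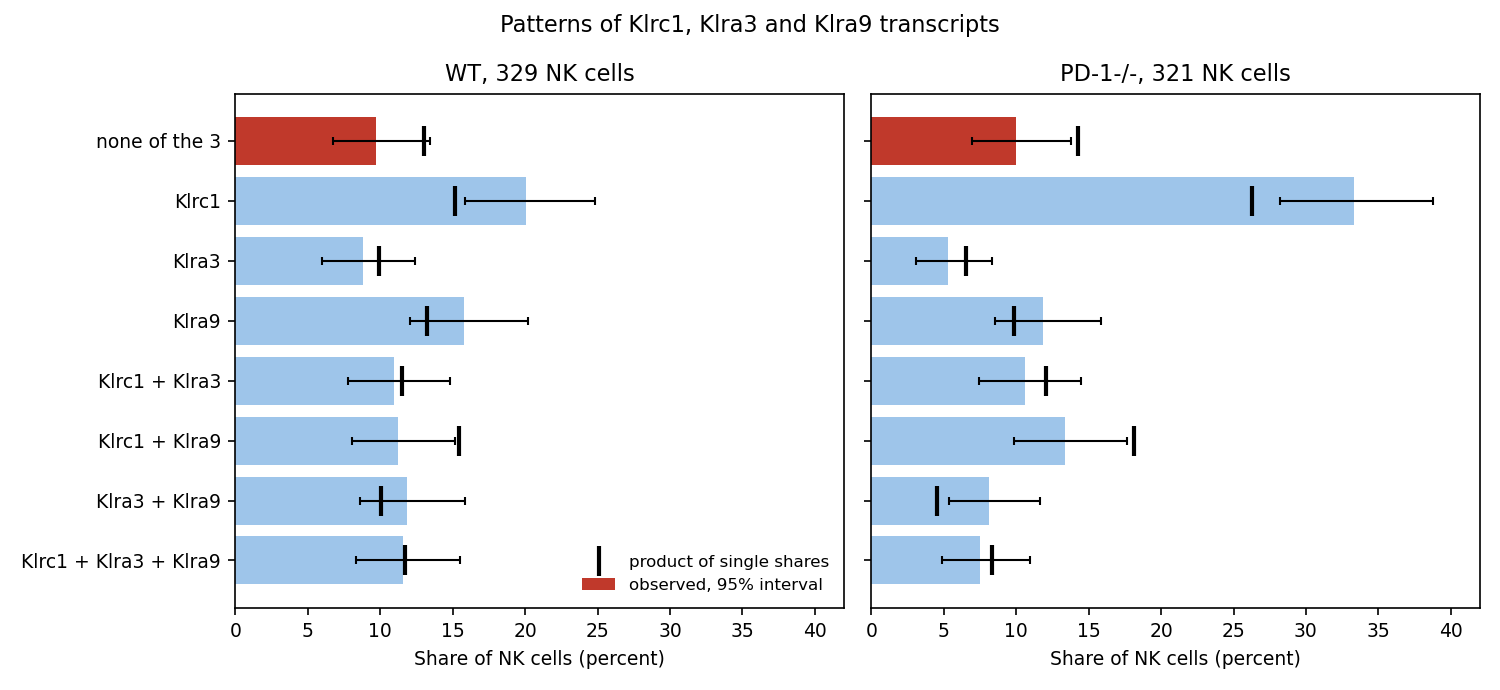
Share of NK cells (percent) with each of the 8 patterns of Klrc1, Klra3 and Klra9 transcripts, WT left and PD-1-/- right. Bars are observed shares with exact 95% binomial intervals, the receptor-negative pattern in red and the others in blue, and black ticks are the products of the single shares. The red bars stand at 9.73% and 9.97%, left of their ticks at 13.01% and 14.3%.

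Some cells lay near the edges of the rule. Cells with exactly 1 receptor had a median of 359.4 RPKM of it in WT and 406 RPKM in PD-1-/-, with lowest values of 1.31 and 1.27 RPKM, and 6 and 7 of them held the receptor by 1 read. Over all NK cells of both plates, 14 cells held Klrc1, 28 held Klra3 and 13 held Klra9 by 1 read, so the edge of the comparators at 2 receptors also rests in part on single reads. With 10 RPKM required for presence, 34 of the 71 genes called higher and 22 of the 59 called lower across all genes kept their call. The receptor-negative cells held 1290 to 3324 detected genes in WT and 1410 to 3368 in PD-1-/-. Of the 32 on each plate, 3 had 1 of the Cd3 genes. Just outside the rule, 6 WT and 3 PD-1-/- cells had no receptor but 2 or 3 Cd3 genes, 6 and 3 wells fell below 1000 detected genes, and 2 and 0 lay above 3500.

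Depth was close between the receptor-negative cells and their comparators. They had a median of 2166 (WT) and 2169.5 (PD-1-/-) detected genes and 365836 and 404044 reads recovered from the RPKM values. The matched comparators had 341750 and 405550 reads, and all 32 pairs on each plate lay within 41 (WT) and 39 (PD-1-/-) detected genes of each other. Over all kept cells, recovered reads ran from 1786 to 651013, and 3 WT receptor-negative cells had fewer than 100000.

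The receptor-negative cells carried the markers of NK cells. All 8 NK markers were found in 71.9% to 100% of them in WT and in 78.1% to 100% in PD-1-/-. Among them were Ncr1 (NKp46), Klrb1c (NK1.1), Klrk1 (NKG2D) and the signaling adaptors Tyrobp and Fcer1g. The sort had already chosen cells by NK1.1. All comparators had the 8 markers in 64% to 100% and 62.99% to 100%. Of the 10 T cell markers, 7 were at 0 in the receptor-negative cells of each plate, Cd4 and Cd8a included, and none of the 64 cells had 2 of them. The rule fixes part of this, since Cd3d, Cd3e and Cd3g are 3 of the 10 markers and no cell could have 2 of those. Any T cell marker was found in 4 and 5 of 32 cells, any myeloid marker in 3 and 0, any neutrophil marker in 1 and 0, any B cell marker in 1 and 0, any of the 4 fibrosarcoma markers in 0 and 1, and any cycling marker in 6 and 8. Among the 32 matched comparators, any T cell marker was found in 4 and 6, any myeloid marker in 4 and 3, any fibrosarcoma marker in 3 and 0 and any cycling marker in 5 and 6. The part of these few cells in the results was not tested.

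Across all genes, the receptor-negative cells stood close to their matched comparators. A gene was called higher or lower where the share of cells with it differed by at least 10 percentage points and mean RPKM by at least 1.5-fold, in the same direction on both plates. Of 6258 genes in at least 10% of either set, 71 were higher (1.13%) and 59 lower (0.943%), 2.08% in either direction, while 77 (1.23%) met the same limits in opposite directions on the plates. On 1 plate alone, 9.43% of the genes were higher and 9.04% lower in WT, and 9.89% and 8.61% in PD-1-/-. The share differences of the 2 plates correlated across genes with r = 0.05, a description over 6258 genes that share cells and libraries. The median share difference was 0 points on each plate. The counts by gene list are to be read against these percentages. These are size calls without a p-value, since cells of 1 pool are not replicates.

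**Figure D2:**
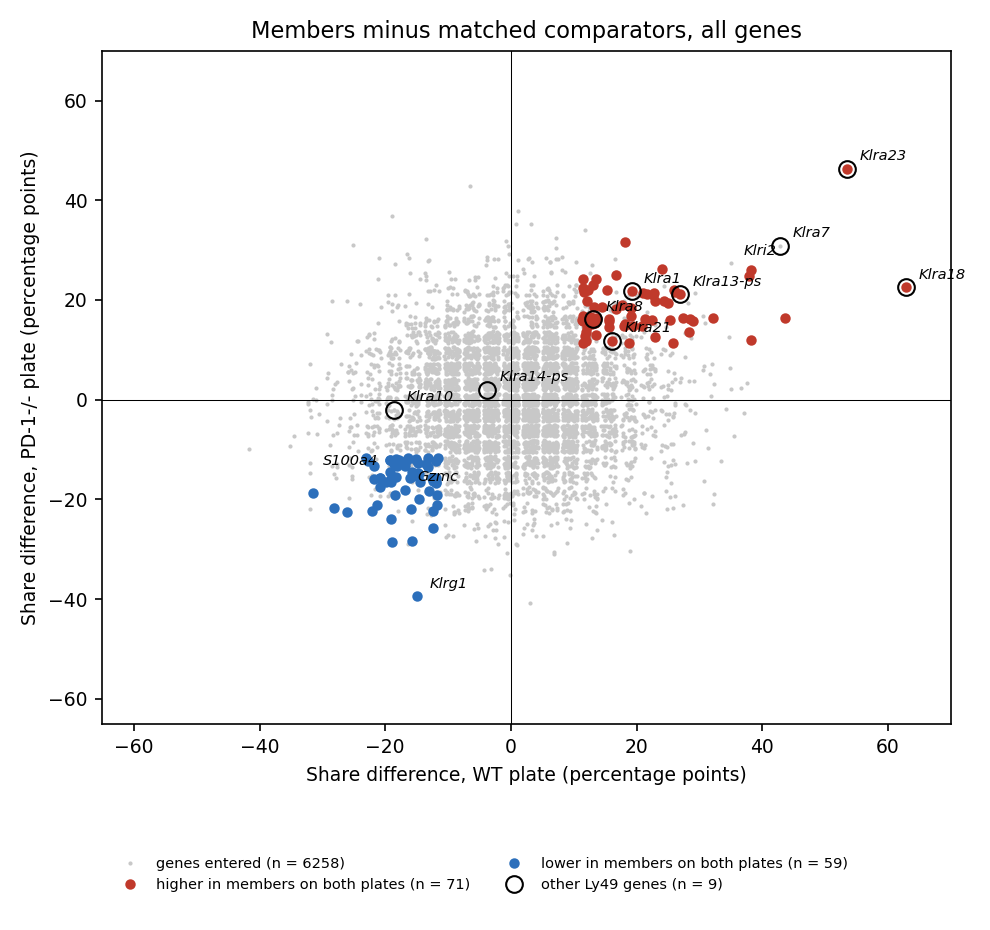
Difference in the share of cells with each of 6258 genes, receptor-negative cells minus matched comparators, in percentage points, on the WT plate (x axis) and the PD-1-/- plate (y axis). Red points are the 71 genes higher and blue points the 59 lower on both plates, and rings mark the 9 other Ly49 entries; Klra23, Klra18 and Klra7 lie outside the cloud at the upper right and Klrg1 at the lower left.

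The clearest difference lay in the other Ly49 genes. Of 20 listed, 18 were found in the files and 9 were frequent enough to enter, and 6 of the 9 were higher in receptor-negative cells on both plates and 0 lower, against 1.13% higher over all genes. Their median share difference was 18.8 points in WT and 21.9 points in PD-1-/-. Against matched cells with exactly 1 receptor it was 12.5 points on both plates, and against all comparators without matching 13.7 and 20.96 points.

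Klra7 encodes Ly49G, an inhibitory receptor whose best known ligand is H-2Dd, an allele that C57BL/6 mice lack. Among WT receptor-negative cells it was found in 31 of 32, 96.9% (83.8 to 99.9), with a lowest value of 0, a median of 1104 and a highest of 4354 RPKM. The matched comparators had it in 17 of 32, with a median of 39.8 and a highest of 2987 RPKM. In PD-1-/- it was found in 24 of 32 receptor-negative cells, 75% (56.6 to 88.5), with a median of 640.4 RPKM, against 14 of 32 with a median of 0. The ranges of single cells overlapped. Among cells with Klra7 the medians were 1148 against 784 RPKM in WT and 1251 against 1212 RPKM in PD-1-/-. Mean RPKM was higher by 1.29 on the log2 scale in WT but by 0.43 in PD-1-/-, so Klra7 missed the size rule there. It is named for its share, after its values were seen.

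Klra23 was found in 27 of 32 WT receptor-negative cells, 84.4% (67.2 to 94.7). The PD-1-/- plate had it in 26 of 32, 81.2% (63.6 to 92.8). The matched comparators had it in 10 and 11 of 32, 31.2% and 34.4%, and all comparators in 52.7% and 43.3%. Its median in the receptor-negative cells was 905 RPKM in WT and 855 RPKM in PD-1-/-, with a highest value of 2349 and 2396, and its median in the matched comparators was 0 on both plates. On both plates the matched comparators thus had Klra23 less often than comparators at large, and the difference without matching is smaller. Mean RPKM was higher by 1.63 and 1.52 on the log2 scale.

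Klra18 was found in 27 of 32 WT receptor-negative cells and 19 of 32 PD-1-/- cells, 84.4% and 59.4%, against 7 and 12 of 32 matched comparators, 21.9% and 37.5%. All comparators had it in 42% and 25.2%. Klra21 was found in 13 and 15 of 32 cells, against 8 and 11 of 32 matched comparators, and was the weakest of the higher entries, since 38% of all WT comparators had it. Medians of Klra21 were 0 RPKM in every set.

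These 3 entries carry a limit of identity. Klra18, Klra21 and Klra23 have no gene model on chromosome 6 of the C57BL/6 annotation GENCODE vM21, so which C57BL/6 transcripts gave their reads cannot be told from the files, and no receptor function is assigned to them here. Klra4, which encodes the activating receptor Ly49D and does have a model, was listed at 0 in all 650 NK cells. Klra13-ps, a pseudogene with a model, was found in 28 of the 53 receptor-negative cells with Klra23 and 0 of the 11 without it, and in 78 and 2 cells with exactly 1 receptor that had and lacked Klra23. Across the 650 NK cells Klra13-ps and Klra23 had a Spearman correlation of 0.60 and Klra18 and Klra23 one of 0.44, as a description of values that share libraries and may share reads.

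With the entries that have a gene model alone, 3 of 6 were higher and 0 lower, with medians of 15.6 and 18.8 points. Klra1, which encodes the inhibitory receptor Ly49A, another receptor for H-2Dd, was present in 9 of the 32 receptor-negative cells of WT and in 10 of those of PD-1-/-, against 3 of 32 matched comparators on each plate. Klra8 encodes the activating receptor Ly49H, known for its recognition of a cytomegalovirus protein, and was found in 8 and 7 of 32 cells against 4 and 2 of 32. Klra13-ps was found in 16 and 12 of 32 against 7 and 5 of 32. The exact intervals of such small counts overlap, as for Klra8 in WT at 25% (11.5 to 43.4) in receptor-negative cells and 11.3% over all comparators.

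Other entries did not follow. Klra14-ps, a pseudogene, was found in 68.8% and 65.6% of receptor-negative cells against 71.9% and 62.5% of the matched comparators. Klra10 was found in 1 and 4 of 32 against 7 and 5 of 32, and 21.4% of its 50-base windows occur in Klra9. Of the windows of Klra8, called higher, 10.4% occur in Klra9. Klra5, which encodes Ly49E, was found in none of the 64 receptor-negative cells, where 3 cells would be 4.69%, and in 10.1% of all comparators, and it was too rare to enter the comparison.

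Counted per cell, the receptor-negative cells had a median of 5 of the 18 other Ly49 entries on each plate, from 2 to 7 in WT and from 0 to 7 in PD-1-/-, and 1 of the 64 had none. All comparators had a median of 3 and 2, and 6.67% and 12.6% of them had none. The matched comparators had a median of 2.5 and 2, and 3 and 5 of 32 had none. Cells with exactly 1 receptor lay between in their medians alone, at 4 and 3. More of them had none than in either of those sets, 12.2% and 27.8%. Their mean in PD-1-/- was 2.65 entries, against 2.78 in the matched comparators. Summed over the entries, the median was 3832 RPKM in WT and 3230 RPKM in PD-1-/-. It was 1059 and 1539 RPKM in the matched comparators and 1767 and 1380 RPKM in all comparators. With the 11 entries that have a gene model alone, the medians were 3 genes on each plate against 2 and 1, and 1702 and 1627 RPKM against 729 and 527 RPKM. Cells without NKG2A, Ly49C and Ly49I transcripts were thus seldom without any Ly49 transcript. This was not particular to them. Among cells with all 3 receptors, 1 of 38 in WT and 0 of 24 in PD-1-/- had none of the other entries. In both counts the single-cell ranges overlapped.

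**Figure D3:**
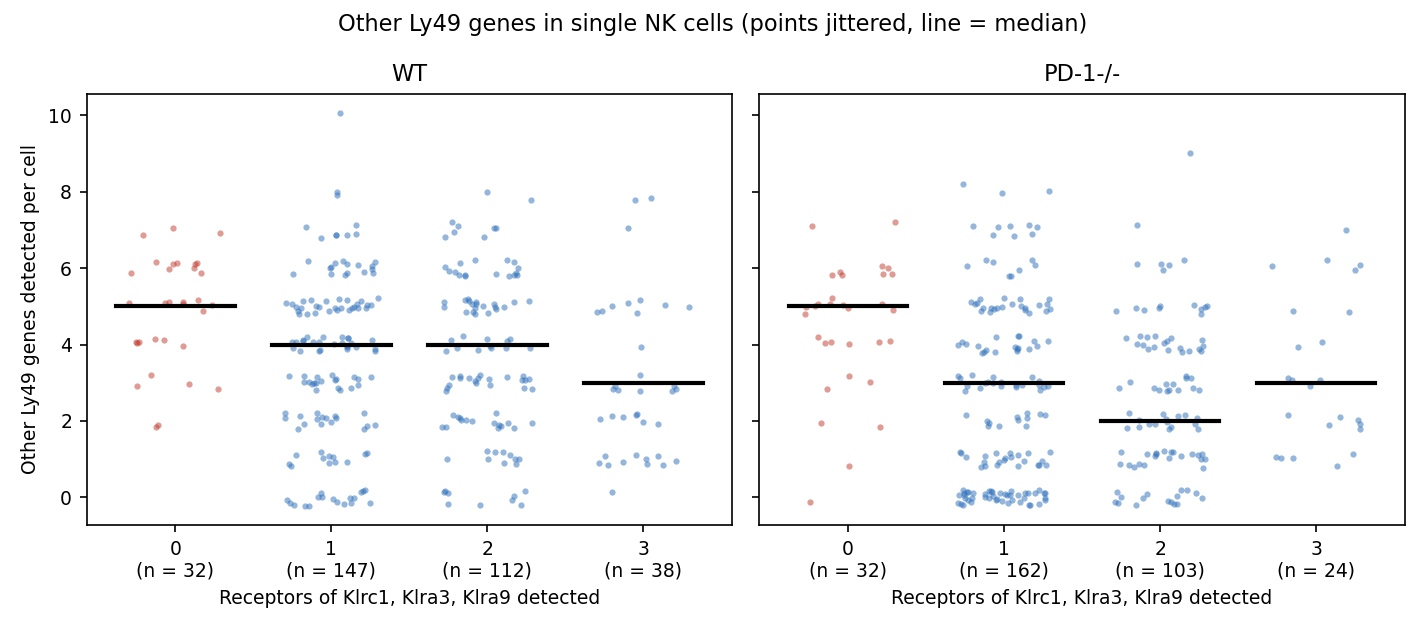
Number of other Ly49 entries detected in each NK cell (y axis) by the number of rule receptors detected (x axis), WT left and PD-1-/- right; each point is 1 cell and the black line the median. Receptor-negative cells in red have a median of 5 on both plates, and cells with 1 receptor in blue have medians of 4 and 3.

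**Figure D4:**
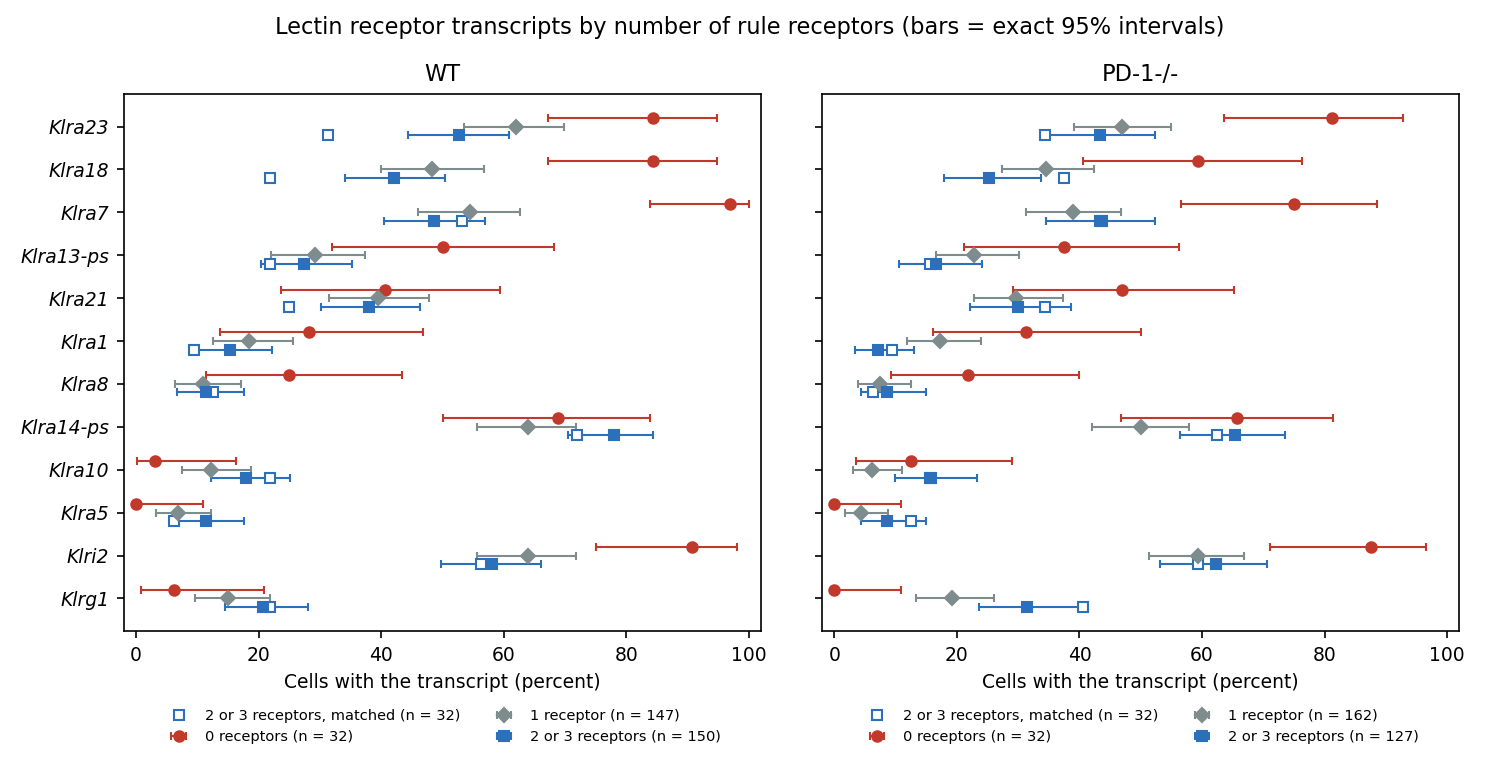
Share of cells (percent) with each lectin receptor transcript in WT (left) and PD-1-/- (right). Red circles are receptor-negative cells, grey diamonds cells with 1 receptor and filled blue squares all cells with 2 or 3 receptors, each with its exact 95% binomial interval, and open squares are the 32 matched comparators. Klra23, Klra18, Klra7 and Klri2 lie to the right in the receptor-negative cells on both plates and Klrg1 to the left.

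Among the other lectin receptors of the NK gene complex, 14 of 17 found entered, 0 were higher and 1, Klrg1, was lower (0.943% lower over all genes). KLRG1 binds cadherins and marks mature NK cells. It was found in 2 of 32 WT receptor-negative cells, at 219.4 and 841 RPKM, and in 0 of 32 PD-1-/- cells, a count that still allows 9.38%. The matched comparators had it in 7 and 13 of 32, 21.9% and 40.6%, all comparators in 20.7% and 31.5%, and cells with 1 receptor in 14.97% and 19.1%. Over both plates it was thus found in 3.12% of receptor-negative cells (0.381 to 10.8) and 25.6% of comparators (20.6 to 31.2). The share was lower in each of the 9 alternative settings tried, by 14.1 to 28.4 points as a mean of the plates, but the size rule held in 3 of them.

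Klri2, whose protein pairs with KLRE1, was found in 29 and 28 of 32 receptor-negative cells, 90.6% and 87.5%, against 18 and 19 of 32 matched comparators, 56.2% and 59.4%. Its mean RPKM was higher by 0.35 in WT and 1.35 in PD-1-/- on the log2 scale, so it missed the size rule in WT and is named after its values were seen. Klrd1, the CD94 partner that NKG2A needs, was found in all 64 receptor-negative cells, with mean RPKM of 1537 against 1542 in WT and 1912 against 1502 in PD-1-/-. Klrk1, the activating receptor NKG2D, was also found in all 64, and Klrb1c and Klre1 in 63 each. Klrc2 was found in 65.6% and 68.8% of receptor-negative cells. All NK cells with Klrc1, a set that includes cells with 1 receptor, had it in 44.6% and 43.3%. Of the 50-base windows of Klrc1, 32.5% occur in Klrc2, and how such reads were divided is not known.

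Few of the remaining genes listed as inhibitory met the size rule. Of 7 entered genes listed as other inhibitory receptors, 0 were higher and 1 was lower, Gp49a. It belongs to the gp49 family of immunoglobulin-like receptors, and no inhibitory function is assigned to it here. Gp49a was found in 12 and 6 of 32 cells against 16 and 10 of 32, a call that held in 2 of 9 alternatives. Its near copy Lilrb4 was in 10 and 6 of 32 against 17 and 11. Tigit, an inhibitory receptor for CD155, was found in 75% and 81.2% of receptor-negative cells against 62.5% and 56.2%, without meeting the size rule. Of 18 genes of inhibitory signaling, 0 were higher and 1 was lower, Cish, a suppressor of interleukin-15 signaling, in 5 and 3 of 32 cells against 10 and 8. That call also held in 2 of 9 alternatives, and without matching the WT difference was −8.38 points. Inpp5d, the phosphatase SHIP1, was found in 24 of 32 cells on each plate against 20 and 19.

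None of the 25 activating receptors and adaptors that entered was called. Ncr1 was found in 31 and 30 of 32 receptor-negative cells, Tyrobp (DAP12) and Fcer1g in all 64, and Hcst (DAP10) in 29 and 32. Cd226, which encodes the activating receptor DNAM-1, was found in 1 of 32 WT cells, at 118.6 RPKM, and in 4 of 32 PD-1-/- cells, at up to 236.3 RPKM, against 17.3% and 32.3% of all comparators. The matched comparators had it in 3 and 7 of 32, too few for it to enter the comparison, and it is named after its values were seen.

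The cytotoxic machinery was largely shared. Of 15 granule genes that entered, 0 were higher and 1 was lower, Gzmc. Gzma, the most abundant granzyme, was found in 30 and 31 of 32 receptor-negative cells and in as many matched comparators, Nkg7 in all 64, and Ctsw in 31 and 30. Gzmc, a granzyme of activated NK cells, was found in 9 of 32 WT receptor-negative cells with a highest value of 399 RPKM, against 14 of 32 comparators with a highest of 16068 RPKM. In PD-1-/- it was found in 4 of 32 cells with a highest of 290 RPKM, against 10 of 32 with a highest of 6891 RPKM. Mean RPKM was 27.7 against 1155 in WT and 15.4 against 350.9 in PD-1-/-, so comparator cells with very high Gzmc had no counterpart among the receptor-negative cells. The share of 28.1% in WT was close to the 34.7% of all WT comparators.

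Of 10 cytokine, chemokine and death ligand genes that entered, none was called, with medians of −6.25 and −4.69 points. Ccl4, an inflammatory chemokine, was found in 8 of 32 receptor-negative cells on each plate, against 11 and 15 of 32. Its highest value was 7897 RPKM in WT and 1915 RPKM in PD-1-/-, against 48169 and 23949 RPKM. Ccl3, its neighbor in function, was found in 6 and 2 of 32 cells against 6 and 7 of 32, with mean RPKM of 79.3 against 505 and 2.58 against 524. Ifng was found in 9 and 8 of 32 against 11 and 12 of 32, and Xcl1 in 24 of 32 on each plate against 25 and 20. Among 16 immediate early genes, which rise briefly on stimulation of a cell, 0 were called, 7 had lower shares on both plates and 0 had higher shares on both (19.3% and 20.7% of all genes), with medians of −9.38 and −3.12 points. Dusp2, which encodes a phosphatase of that kind, was found in 15 and 24 of 32 cells against 21 and 26. Ccl3, Ccl4 and Ifng are named after their values were seen.

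Genes of NK cell maturation gave no single direction. Of 11 early stage genes 1 was higher, Cxcr3, a chemokine receptor, in 12 and 15 of 32 cells against 7 of 32 on each plate. This call rests on the matching, since 45.3% and 42.5% of all comparators had Cxcr3. Of 16 late stage genes 1 was lower, Klrg1 again. S100a4, a calcium-binding protein of motile effector cells, was found in 9 and 6 of 32 cells, 28.1% and 18.8%, against 19 and 11 of 32 and against 45.3% and 47.2% of all comparators. Its mean RPKM fell short of the size rule in PD-1-/-, where it was lower by 0.53 on the log2 scale, and it is named after its values were seen. Its relative S100a6 was found in 24 of 32 WT receptor-negative cells and as many matched comparators, but in 14 against 22 of 32 in PD-1-/-. Thy1, from the early stage list, was found in 12 and 16 of 32 against 19 and 21.

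None of 10 residency genes that entered was called, 0 had higher and 5 had lower shares on both plates, against 20.7% and 19.3% of all genes. Cxcr6, a chemokine receptor of tissue-resident lymphocytes, was too rare to enter. It was at 0 in the 32 WT receptor-negative cells, a count that still allows 9.38%, and in 1 of 32 PD-1-/- cells, at 1.89 RPKM. All comparators had it in 2.67% and 15.7%, and the matched comparators in 1 and 4 of 32. Inpp4b was found in 1 and 0 of 32 cells, against 12.7% and 12.6% of all comparators and 4 of 32 matched comparators on each plate. Itga1, the integrin CD49a, was found in 3 of 32 on each plate. All comparators had it in 11.3% and 20.5%, and the matched comparators in 4 and 5 of 32. Among transcription factors 0 of 16 were called. Eomes, which NK cells need for maturation, was found in 71.9% and 78.1% of receptor-negative cells and in 64% and 62.99% of all comparators, and Tbx21 (T-bet) in 62.5% and 65.6% against 64% and 71.7%. Cxcr6, Inpp4b, Itga1, Eomes and Tbx21 are named after their values were seen.

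Class I genes of the NK cells themselves differed little. Of 12 that entered 1 was higher, Tap1, the peptide transporter subunit that the tumor lacks, in 24 of 32 cells on each plate against 18 and 19 of 32, and 62% and 68.5% of all comparators. The call held in 2 of 9 alternatives and was lost without matching, where the PD-1-/- difference was 6.50 points. H2-K1 was found in all 64 receptor-negative cells, with mean RPKM of 5496 against 4486 in WT and 5029 against 4878 in PD-1-/-. B2m was found in all 64, and H2-D1 in 63. Housekeeping genes were not called (0 of 7), nor were the 13 cytokine receptors, among them Il2rb, the interleukin-15 receptor chain, in all 64 cells. Of 20 growth and glycolysis genes 2 were lower, Odc1, the first enzyme of polyamine synthesis, in 5 of 32 cells on each plate against 12 and 10, and Hspd1, a mitochondrial chaperone, in 9 and 14 of 32 against 14 and 19. Of 9 genes of the Bcl2 family 0 were called, and Bcl2, the survival factor, was found in 32 and 29 of 32 cells against 25 and 28 of 32.

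Of the 71 higher, list genes included, the 10 leading were Klra23, Klra18, Klra13-ps, Isy1, Hcfc1, Nck1, Nudt16l1, Spop, Tnfrsf26 and Txndc11. Klra23, Klra18 and Klra13-ps are Ly49 calls already given. Hcfc1, a transcriptional coregulator, was found in 21 and 17 of 32 receptor-negative cells against 9 of 32 on each plate, and in 34% and 37.8% of all comparators. Nck1, an adaptor of tyrosine kinase signaling, was found in 15 and 11 of 32 against 8 and 4. Isy1, a splicing factor, was found in 22 and 15 of 32 against 10 and 7. Leading among the 59 lower were 0610037L13Rik, Ahctf1, Cmc1, Dynll1, Naa38, Oraov1, Rfxank, Rnf4, Sft2d1 and Uimc1. Dynll1, a dynein light chain, was found in 17 of 32 cells on each plate against 24 of 32, and 65.3% and 62.2% of all comparators had it. These genes lead by their rank among calls that were 2.08% of all genes, beside the 1.23% in opposite directions.

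The receptor patterns separated the differences further. NK cells with Klra3 or Klra9 but no Klrc1 (46 with Klra3, 90 with Klra9 and 65 with both, over the 2 plates) and cells with Klrc1 alone (26.6% of the 650 NK cells) were set beside the 64 receptor-negative cells, each cell counted in 1 set. Klra7 was found in 85.9% of receptor-negative cells, 57.2% of cells with Klra3 or Klra9 and 35.3% of cells with Klrc1 alone. Klra23 was found in 82.8%, 70.1% and 37.6%, Klra18 in 71.9%, 63.7% and 21.4%, and Klri2 in 89.1%, 75.1% and 50.9%. For these entries the cells without Klrc1 thus resembled the receptor-negative cells more than the Klrc1 cells did. For Klra18 the first pair changed order in PD-1-/-, at 59.4% and 62.96%. On each plate apart the order of Klra7 was the same, at 96.9%, 58.3% and 46.97% in WT and 75%, 55.6% and 28.04% in PD-1-/-.

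Cd226, Cxcr6 and S100a4 had their highest shares in cells with Klrc1 alone. Cd226 was found in 3.12%, 8.33% and 39.4% of the 3 sets in WT and in 12.5%, 14.8% and 49.5% in PD-1-/-. Cxcr6 was found in 0, 0 and 15.2% in WT and in 3.12%, 3.70% and 28.97% in PD-1-/-, and S100a4 in 28.1%, 25.8% and 54.5% and in 18.8%, 32.1% and 57.9%. Cells with Klrc1 together with Klra3 or Klra9 were below the Klrc1 cells, at 20.7% and 36.6% for Cd226, 3.60% and 18.8% for Cxcr6 and 49.5% and 48.5% for S100a4. Inpp4b was found in 1.56%, 6.47% and 26.6% over both plates, which the sets draw on unequally. Klrg1 did not show this order, at 3.12%, 17.9% and 19.7%, so receptor-negative cells had it less often than either set over both plates. On the WT plate, however, cells with Klrc1 alone had Klrg1 in 6 of 66, 9.09% (3.41 to 18.7), close to the 2 of 32 receptor-negative cells. Across the 650 NK cells, Klrc1 had Spearman correlations of −0.43 with Klra18, −0.34 with Klra23 and −0.25 with Klra7, as a description.

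**Figure D5:**
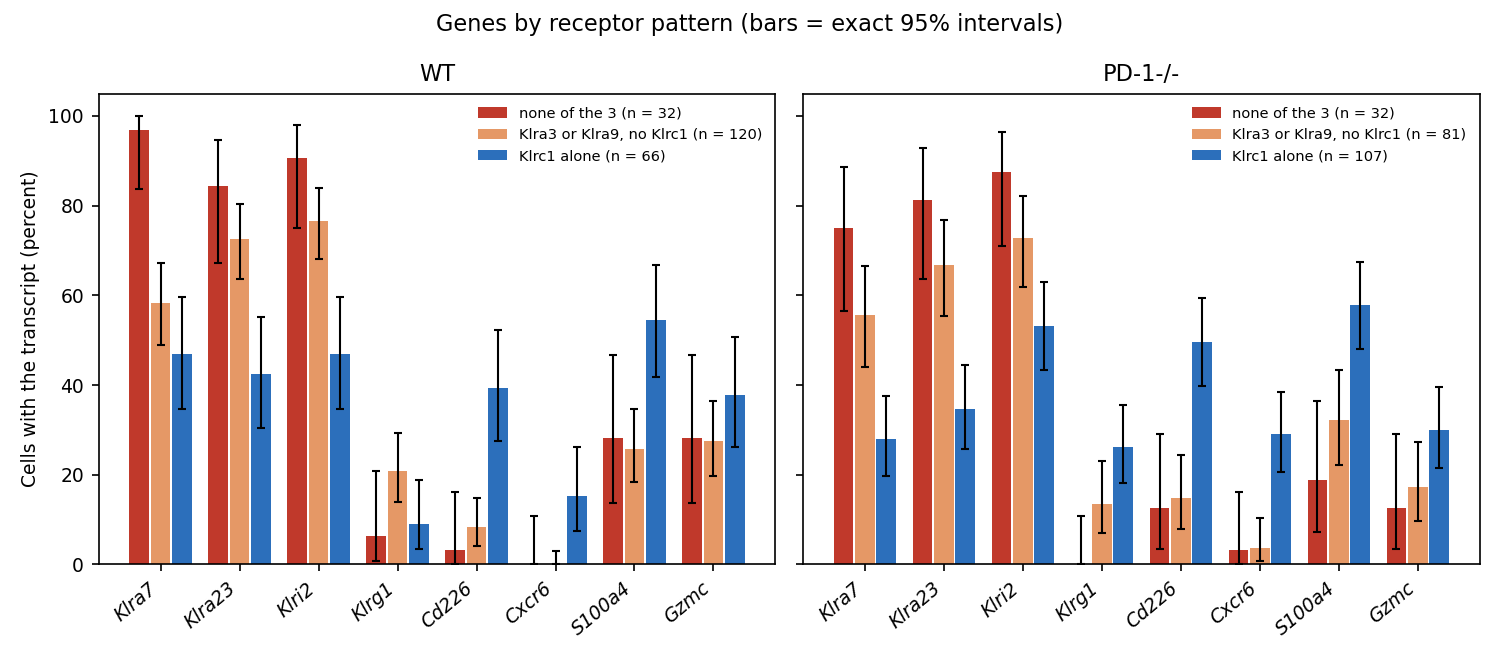
Share of cells (percent) with 8 named genes by receptor pattern, WT left and PD-1-/- right, with exact 95% binomial intervals. Red bars are receptor-negative cells, orange bars cells with Klra3 or Klra9 but no Klrc1 and blue bars cells with Klrc1 alone; in both panels Klra7, Klra23 and Klri2 are highest in red, and Cd226, Cxcr6 and S100a4 are highest in blue.

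Between the genotypes, receptor-negative cells were equal in number, and the shares of some named genes stood apart. Klra7 was found in 96.9% of them in WT and 75% in PD-1-/-, Klra18 in 84.4% and 59.4%, S100a6 in 75% and 43.8%, and Dusp2 in 46.9% and 75%. Klra7 and Klra18 were also less frequent in PD-1-/- among cells with 1 receptor, at 54.4% against 38.9% and 48.3% against 34.6%, while S100a6 was at 74.1% and 72.8% and Dusp2 at 58.5% and 74.1% there. With 1 pool and 1 plate per genotype these differences were not tested.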

How the data were processed

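RPKM values per gene and well, as deposited by the authors for SMART-Seq2 libraries, were used (24490 entries, 768 wells); the submitters' processing notes name TopHat, Cufflinks, mm9 and mm10, without versions or roles. A gene was present above 0 RPKM. Detected genes were counted over the 14761 genes above 0 in at least 3 wells. Relative reads per cell were recovered from the steps of low RPKM values; 89.5% of 820284 low values came out whole within a relative tolerance of 0.0003. No unique molecular identifiers were used, no doublet caller was run, and each well is its own library. Sequences and gene models were those of GENCODE vM21 (GRCm38), and the build behind the RPKM values was not settled.

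Receptor-negative cells were matched 1 to 1 within a plate on detected genes, at most 100 apart. Genes in at least 10% of either set on each plate entered, the 3 receptors and Cd3 genes left out. The log2 ratio is of mean RPKM with a pseudocount of 1. Exact intervals (95%) and the limit for a count of 0 (3 cells) cover counting error only. There was 1 pool per genotype, so no p-value was computed. The members and the 17 gene lists and 7 marker lists were chosen with earlier results of these data known. Named are the rule's genes, list genes that met the size rule and up to 4 frequent others per list, the 10 leading genes each way, and genes marked as named later. The script was tested on simulated data. Python 3.11.15, numpy 2.4.6, pandas 2.3.3, scipy 1.17.1 and matplotlib 3.10.9 were used. Alternatives changed the cell filters, the detection limit, depth, matching, comparators, pseudocount, scaling and size limits.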

Additional observations from a re-analysis of the deposited data

Results flagged for a closer look

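Npm1, a nucleolar protein of ribosome assembly, is given because its difference between receptor-negative cells and matched comparators had opposite signs on the plates. The share difference was −12.5 points in WT and 21.9 points in PD-1-/-, 34.4 points apart. Receptor-negative cells had it in 26 and 31 of 32, and matched comparators in 30 and 24 of 32. Against all comparators the differences were −11.4 and 12.6 points. The difference between the plates was not tested, and 77 of 6258 genes met the full size rule in opposite directions.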

How the results depend on the processing

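No paired analysis was possible because the numbers in the sample titles name wells of single cells on separate plates, and each genotype was 1 pool. The share of receptor-negative cells lay between 9.83% and 10.9% in WT and between 9.57% and 11.5% in PD-1-/- under 5 alternatives. Genes called higher, 1.13% of those tested, became 2.03% with no Cd3 gene allowed, 1.72% against cells with all 3 receptors, 0.42% without matching, 0.481% with no filter on low values and 0.288% at limits of 15 points and 2-fold. Genes called lower, 0.943%, became 1.87%, 2.04%, 0.869%, 0.4% and 0.256% in those settings. Calls in opposite directions were 3.30%, 3.24%, 0.465%, 0.522% and 0.144%. The filter on low values left the same 71 and 59 genes and changed only the number tested. Without matching, 28 genes were higher, 14 of them among the 71. Matching on recovered reads kept 11 of the 71 and 11 of the 59, with 3 other Ly49 entries higher and Klrg1 not called, and thinning to 100000 reads kept 22 and 9. Other Ly49 entries called higher numbered 2 to 6, and 2 were lower against cells with all 3 receptors. Only entries with a gene model, an alternative chosen after seeing the data, left 3. Klra23 stayed 32.2 to 51.7 points higher, Klra18 31.3 to 43.8 and Klra7 34.2 to 45.3, while the size rule held in 5 of 9 alternatives for Klra1 and Klra8 and in 4 for Klra21. Of 414 values of 46 named genes, 60 moved by more than the counting error of the receptor-negative share alone. Among the genes called in the main setting, 2 values changed sign. Sign changes of genes not called were not counted, as for Ifng, which went from −9.38 to as high as 10.9 points. Cxcr3 went to −1.74 points without matching, and Nudt16l1 to −1.85 points against cells with all 3 receptors. The cause was not tested. With 32 cells per plate, small differences in share were not detectable.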
